A study of Homo sapiens with 6 samples.

Results

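The cytosolic and mitochondrial chaperone families were examined in the human cell line MM.1S, derived from multiple myeloma, a cancer of plasma cells, on 1-colour expression arrays. Members were the genes whose symbols belong to the HSPA, HSPB, HSPD, HSPE, HSPH, HSP90, DNAJA, DNAJB, DNAJC, BAG and CCT families. Left out were 6 chaperones of the endoplasmic reticulum. The rule read names and no measured values, though the list was chosen with earlier results of these data known. The rule found 26 of the 14884 genes tested. Of these, 22 are protein-coding, and the others are the transcribed pseudogene HSPA7, the read-through RNA HSPB2-C11orf52 and the antisense RNAs DNAJC9-AS1 and DNAJC27-AS1. The last 3 and the protein-coding HSPBAP1, whose product binds HSPB1, fit the rule by name only. In RefSeq, 84 protein-coding genes fit the rule, and those of the DNAJ (41), CCT (9), HSP90 (2) and HSPE (2) families were not analysed here. Values were at hand for 11 of 13 HSPA, 4 of 9 HSPB, 5 of 6 BAG and the single HSPD and HSPH genes. Both HSPB numbers count HSPBAP1 by its name, so 3 small heat shock genes had values. The members with values are therefore mainly HSP70 and HSP110 proteins, small heat shock proteins, the HSP60 chaperonin and BAG proteins, and the label of the list is wider than its measured content.

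The arrays fall into 2 groups. In the ATRA group (3 arrays) cells had a 1 h pulse of Cfz, the usual abbreviation of the proteasome inhibitor carfilzomib, and were then grown for 12 h with 10 µM ATRA, all-trans retinoic acid. In the DMSO group (3 arrays) cells had the same pulse and then 12 h with the solvent. Both groups thus carried the Cfz exposure, cells without it were not analysed here, and the comparison asks how ATRA alters expression after the pulse in 1 cell line. The labels do not state that replicate arrays stem from separate cultures. The p-values thus rest on the spread between these arrays, which may be technical, and on a variance value shared by all genes. With so few arrays each value has limited precision.

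HSP70 proteins bind short hydrophobic stretches of unfolded proteins and release them in a cycle driven by ATP. J-domain proteins deliver the substrate, and HSP110 and BAG proteins exchange the nucleotide that ends the cycle. Small heat shock proteins hold unfolded proteins without ATP, and HSP60 folds proteins inside a closed chamber in the mitochondrial matrix. When proteasomes are blocked, misfolded proteins build up and the transcription factor HSF1 switches on many of these genes through heat shock elements, inverted repeats of the letters GAA. Myeloma cells make large amounts of secreted protein and are known for their reliance on such quality control.

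The promoter sequences of 5 members are shown because the results turn on these genes and because heat shock elements are read from letters. They are the 250 bases before the gene start from RefSeq (GRCh38.p14), 5′ to 3′ on the gene's strand, with GAA and TTC in capitals where they form a pair GAANNTTC or TTCNNGAA. HSPA6 lies on chr1:161524290-161524539 (plus strand), HSPD1 from the second of its 2 listed starts on chr2:197499841-197500090 (minus strand), HSPA1A on chr6:31815293-31815542 (plus), HSPA1B on chr6:31827488-31827737 (plus) and HSPB1 on chr7:76302423-76302672 (plus).
HSPA6: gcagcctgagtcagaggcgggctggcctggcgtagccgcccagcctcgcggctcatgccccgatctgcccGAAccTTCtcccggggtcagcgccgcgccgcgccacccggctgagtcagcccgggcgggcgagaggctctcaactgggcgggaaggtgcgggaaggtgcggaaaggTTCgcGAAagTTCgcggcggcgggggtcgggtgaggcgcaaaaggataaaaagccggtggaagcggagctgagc
HSPD1: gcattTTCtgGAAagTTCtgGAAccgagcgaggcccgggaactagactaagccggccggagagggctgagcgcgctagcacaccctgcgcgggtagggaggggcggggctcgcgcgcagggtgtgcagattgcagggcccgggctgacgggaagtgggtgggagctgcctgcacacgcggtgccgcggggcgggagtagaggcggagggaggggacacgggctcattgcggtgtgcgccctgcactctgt
HSPA1A: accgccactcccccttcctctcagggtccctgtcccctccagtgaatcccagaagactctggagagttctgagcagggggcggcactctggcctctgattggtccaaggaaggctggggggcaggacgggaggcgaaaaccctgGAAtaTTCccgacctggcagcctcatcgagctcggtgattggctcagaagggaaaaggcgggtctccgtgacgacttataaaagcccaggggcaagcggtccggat
HSPA1B: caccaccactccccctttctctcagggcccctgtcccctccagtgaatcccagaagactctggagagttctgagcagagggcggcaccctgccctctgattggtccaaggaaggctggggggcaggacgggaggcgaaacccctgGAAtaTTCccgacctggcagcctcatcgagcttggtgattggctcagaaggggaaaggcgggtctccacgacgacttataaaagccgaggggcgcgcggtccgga
HSPB1: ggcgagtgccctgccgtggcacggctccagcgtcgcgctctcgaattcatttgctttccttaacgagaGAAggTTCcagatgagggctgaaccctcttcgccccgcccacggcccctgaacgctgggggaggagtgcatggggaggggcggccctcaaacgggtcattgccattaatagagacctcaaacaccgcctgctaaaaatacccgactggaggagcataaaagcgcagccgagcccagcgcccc
Only exact letters were searched, so units that differ from GAA or TTC were not counted in any window. In these exact letters HSPA6 and HSPD1 carried 3 linked units. The 13 letters TTCNNGAANNTTC began 74 bases before the HSPA6 start, and in HSPD1 the same letters began 245 bases before the start and overlapped GAANNTTCNNGAA, which began 240 bases before it. HSPA1A and HSPA1B had 1 exact pair each, 106 and 105 bases before their starts. Inexact units beside these pairs were not searched. The HSPA1A and HSPA1B windows matched at 277 of 299 bases (92.6%). HSPB1 had 1 pair, 182 bases before its start. In windows of 300 bases (250 before to 50 after the start), searched on both strands, 3 linked units, GAANNTTCNNGAA or TTCNNGAANNTTC, stood in 2 of the 27 windows listed for 21 members, against 0.49% of all 35116 windows. At least 1 pair stood in 11 of the 27 windows, 1 each of HSPA6, HSPD1, HSPA1A, HSPA1B, HSPA1L, HSPB1, HSPB3, HSPB8, BAG2, HSPA9 and HSPA4L, against 13.5% of all windows. Each 3-unit match contains pairs, and the HSPA1L and HSPA1A windows overlap by 241 bases on opposite strands, so they share their pair. The direct repeat letters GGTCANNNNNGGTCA or TGACCNNNNNTGACC were in 0 member windows and in 0.0854% of all windows. At that rate, 0 among 27 windows says little. The usual letters and spacing of retinoic acid response elements were not searched, so the presence of such elements was not tested. A match of letters does not show that a factor binds there.

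**Figure D1:**
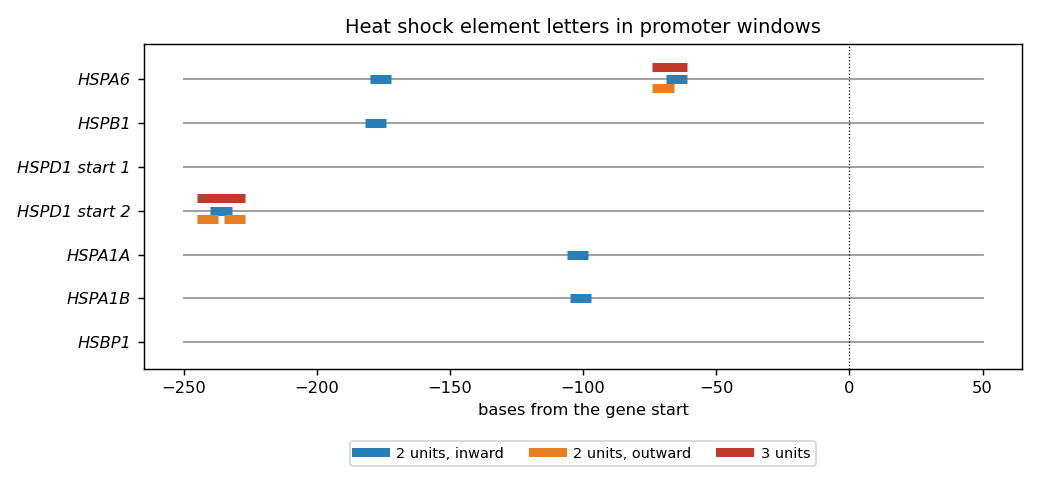
Positions of heat shock element letters in the RefSeq promoter windows of 5 members and of HSBP1, with bases from the gene start on the horizontal axis and 1 line per window. Red bars mark 3 linked units, blue bars inward pairs (GAANNTTC) and orange bars outward pairs (TTCNNGAA). Red bars stand in HSPA6 and in the window of the second HSPD1 start.

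HSPA6 rose and HSPB1 fell with ATRA, and these were the 2 members that passed the test. In RNA of whole cultures, fewer cells that express a gene and less RNA per cell cannot be told apart. Calls are an adjusted p under 0.05 from limma with Benjamini-Hochberg adjustment over all 14884 genes. The count is thus 1 of 26 higher and 1 of 26 lower, close to the 1.73% and 2.07% of all genes tested that were called in these directions. The groups did not overlap for 9 members, 6 with all ATRA values above and 3 with all below the DMSO values, against 9.86% and 14.8% of all genes. At an unadjusted p of 0.05, 5 members were higher (7.52% of all genes) and 3 lower (10.4%). In mean, 12 members were higher and 14 lower, with a median difference of -0.02 on the log2 scale, beside -0.01 over all genes. The HSP70 genes alone spanned differences of -0.24 to 0.90, as the plot of all differences shows.

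**Figure D2:**
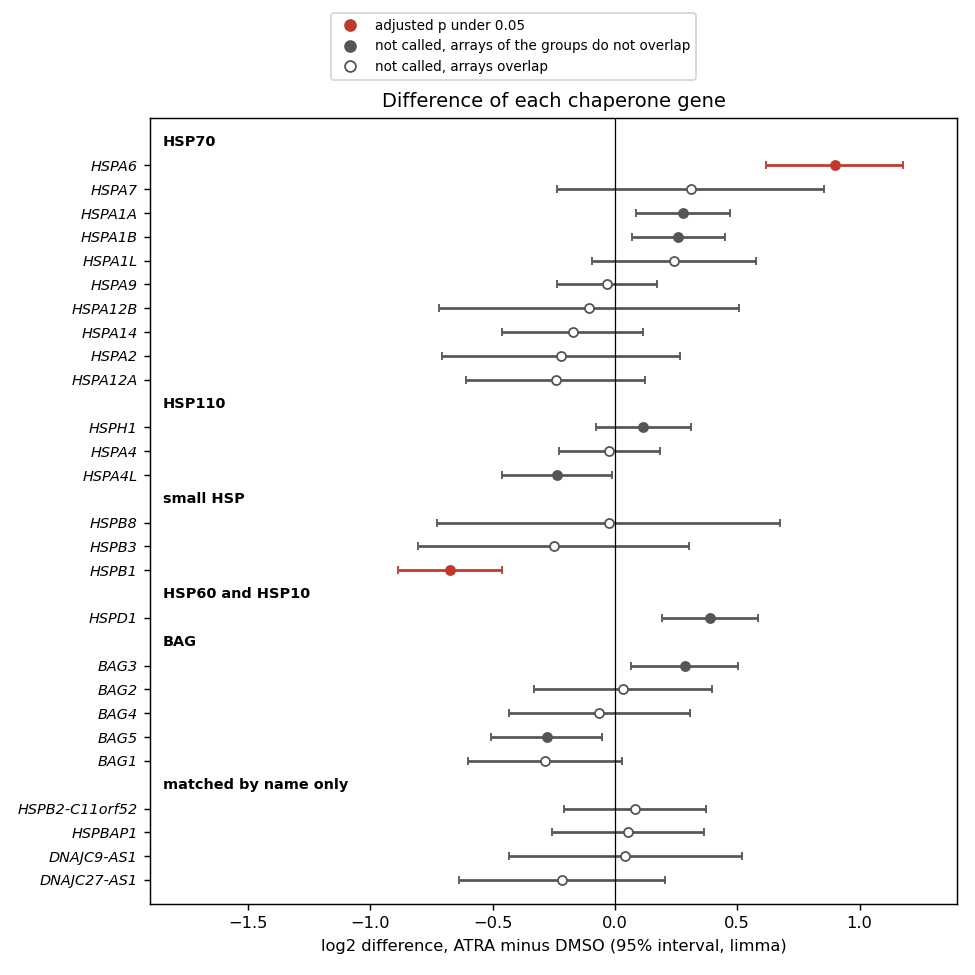
Log2 difference, ATRA minus DMSO, of the 26 members by family, with limma's 95% interval (3 arrays per group). Red points passed an adjusted p of 0.05, filled grey points did not pass but their groups do not overlap, and open points overlap. HSPA6 (0.90) stands at the upper and HSPB1 (-0.67) at the lower end.

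Some members were perhaps too dim to judge. Of 30 listed markers of B, T, NK, monocytic, erythroid, epithelial, fibroblast and endothelial cells 17 were measured, and all lay at a mean log2 intensity of at most 4.91 apart from KRT18 (7.15). Their summed intensity was 345 to 368 on ATRA arrays and 352 to 455 on DMSO arrays, and 0 of them were called. The 6 measured of 9 listed plasma cell markers lay between 9.26 and 10.95 over the 6 arrays, and 3 of them were called, all higher with ATRA: CD38 by 1.95 (mean log2 intensity 10.24 with ATRA and 8.29 with DMSO), SDC1 by 0.84 and XBP1 by 0.54. The other measured plasma cell markers were not called and differed by 0.25 (MZB1), -0.17 (IRF4) and -0.31 (SLAMF7). The part of the plasma cell markers in the chaperone results was not tested. Leaving KRT18 aside, a choice made after its value was seen, 10 members were at or below the marker levels, among them the HSP70 genes HSPA1L, HSPA2, HSPA7, HSPA12A and HSPA12B, the small heat shock genes HSPB3 and HSPB8 and the 3 non-coding RNAs matched by name. The 9 members without overlap were all among the other 16, and of the 6058 genes above the same level 41.5% had no overlap. With KRT18 kept, 16 members were at or below the marker levels. They then included 2 of the 9 without overlap, HSPA6 (mean log2 intensity 5.85) and BAG5 (6.38). Intensity depends on the probes, so differences are read between arrays for 1 probe set. The comparison of members with marker levels is one between genes and only a rough guide.

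Among the cytosolic HSP70 genes, HSPA6 encodes a protein that is close to absent in unstressed human cells and is made under severe protein stress. HSPA6 had an intensity of 78.3, 76.1 and 81.1 on the ATRA arrays, against 37.6, 40.3 and 49.3 on the DMSO arrays. All ATRA values were thus above all DMSO values, with the wider spread in the DMSO group. The means were 78.5 ± 2.49 with ATRA and 42.4 ± 6.12 with DMSO (SD, n = 3 arrays each), a 1.86-fold rise (log2 difference 0.90, SE 0.12, limma adjusted p = 0.00992). The rise passed in all 6 fits with 1 array left out (0.82 to 1.01) and was 0.70 with an offset of 16 intensity units added before log2. HSPA7, a transcribed pseudogene nearly identical to HSPA6, was at 6.41, 10.9 and 5.90 with ATRA and 5.81, 5.43 and 6.87 with DMSO, overlapping and among the dim markers. Probes for one of these near-identical copies can pick up RNA of the other, so the HSPA6 value is uncertain in its source.

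HSPA1A and HSPA1B, the main stress-inducible HSP70 genes, encode nearly the same protein and lie beside each other in the genome. HSPA1A was at 5436, 5474 and 5426 with ATRA, against 4422, 4553 and 4489.6 with DMSO. HSPA1B was at 7116, 7053 and 7056 with ATRA, against 5884, 5993 and 5868 with DMSO. In both genes the ATRA arrays lay within a narrow band above every DMSO array. The log2 differences were 0.28 for HSPA1A (95% interval 0.09 to 0.47, limma adjusted p = 0.126) and 0.26 for HSPA1B (0.07 to 0.45, adjusted p = 0.151), so neither passed. The array-to-array SD of HSPA1A was 0.0066 with ATRA and 0.021 with DMSO on the log2 scale, while its SE in the fit was 0.082, because limma moderates each gene's variance toward a value shared by all genes. The lowest SE of any of the 14884 genes was 0.081.

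The calls of the bright members change with how that shared variance is set. When it was allowed to depend on the level and to be robust to outlying genes (eBayes with trend and robust), 5 members passed upward, HSPA6, HSPD1, HSPA1A, HSPA1B and BAG3, and 2 downward, HSPB1 and HSPA4L, against 3.32% and 5.6% of all genes. HSPA1A then had an adjusted p of 6.58e-06 and HSPA1B of 5.1e-06. With trend alone, added after seeing the data, the same 7 members passed (3.34% and 5.6% of all genes), and with robust alone HSPA6 and HSPB1 did. Other choices moved the calls too, but they alter the genes tested or the values as well, so the part of the variance in them was not tested. With the brighter 50% of genes alone, 20 members were tested and HSPA6, HSPD1, HSPA1A and HSPA1B passed upward and HSPB1 downward, against 5.86% and 9.5% of those genes. With the offset, the same 5 members passed upward as with trend and robust, and HSPB1 downward, against 3.04% and 5.15% of all genes. In the 6 fits with 1 array left out, neither HSPA1A nor HSPA1B passed, with differences of 0.27 to 0.29 and 0.25 to 0.27.

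Every probe set of these genes gave a like difference. HSPA1A and HSPA1B have 5 probe sets each, and in all 10 every ATRA value was above every DMSO value, with differences of 0.28 to 0.33 for HSPA1A and 0.26 to 0.31 for HSPA1B. Of the HSPA1A probe sets 3 held identical values, and the coding sequences are so alike that the probe sets cannot be taken as separate measurements of separate genes. HSPA1L, a neighbouring HSP70 gene mainly expressed in testis, also has 5, with differences of 0.16 to 0.25. In 1 of them the groups did not overlap, and 3 of the others held identical values. At 34.3, 26.6 and 36.7 with ATRA and 25.4, 26.4 and 30.2 with DMSO, the brightest HSPA1L probe set overlapped between groups and was as dim as markers of other cell types.

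**Figure D3:**
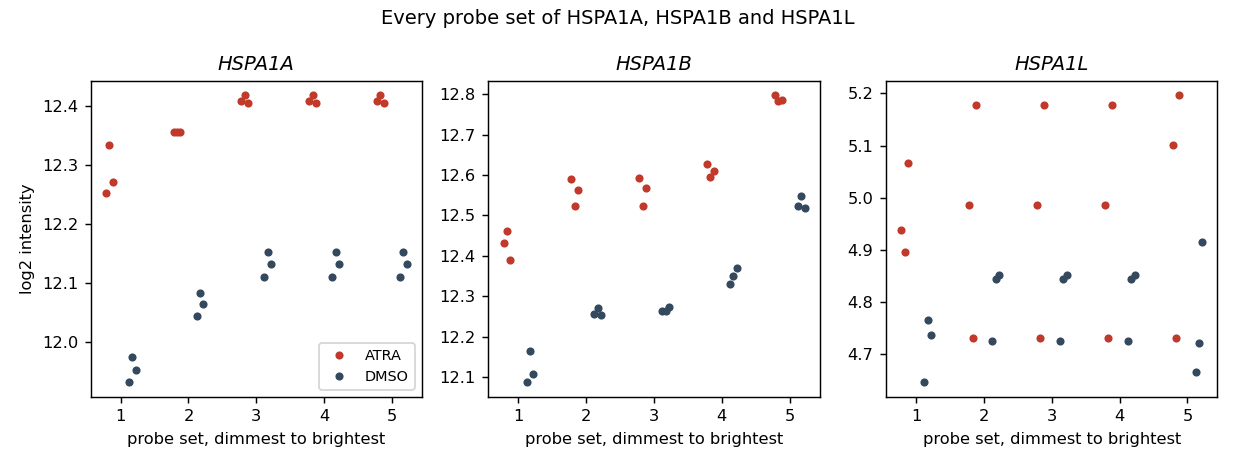
Log2 intensity of every probe set of HSPA1A, HSPA1B and HSPA1L, ordered from dimmest to brightest, with 3 ATRA arrays in red to the left and 3 DMSO arrays in blue to the right at each position. For HSPA1A and HSPA1B all red points lie above the blue points of the same probe set. For HSPA1L they overlap in 4 of 5, and 3 of these 4 hold identical values.

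The mitochondrial HSP70, HSPA9, which pulls imported proteins into the matrix, had overlapping groups. HSPA9 was at 3831, 3824 and 3592 with ATRA and 3703, 3803 and 3988 with DMSO. The log2 difference was -0.03 with a 95% interval of -0.24 to 0.17 (limma adjusted p = 0.896), and its sign turned with quantile normalization (0.0040). HSPA14, which works at the ribosome on emerging chains, was at 158, 197 and 200.1 with ATRA and 224, 202 and 197 with DMSO, a difference of -0.17 (-0.46 to 0.12) that was -0.06 without ATRA replicate 1. HSPA2, a testis-enriched HSP70, and HSPA12A and HSPA12B, distant relatives of the family, had differences between -0.24 and -0.11 at dim levels with overlapping groups. Of the 10 HSP70 genes measured, 1 rose, 0 fell and 9 did not pass, beside 1.73% and 2.07% of all genes called.

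HSPD1, the HSP60 chaperonin of the mitochondrial matrix, stood just outside the threshold. HSPD1 was at 915, 911 and 888 with ATRA, against 697, 673 and 703 with DMSO. Each ATRA array was above each DMSO array, and the gap between groups was many times the spread within them. The group means, 904 ± 14.5 in the ATRA group and 691 ± 15.6 in the DMSO group (SD, n = 3 arrays each), differ by 0.39 on the log2 scale (95% interval 0.19 to 0.58, limma adjusted p = 0.0511). The call was made with quantile normalization (adjusted p = 0.0367), among protein-coding genes alone (0.0338) and with trend and robust, the offset and the brighter 50% of genes (0.000113 to 0.0104). It was not made in any fit with 1 array left out (adjusted p 0.117 to 0.167). The direction was upward in all of these, and HSPA9, which works upstream of HSP60 on imported proteins, had a difference of -0.03.

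HSPB1, also known as HSP27, is a small heat shock protein that holds unfolded proteins and guards the actin skeleton. HSPB1 was at 1087, 1115 and 1003 on the ATRA arrays, against 1769, 1706 and 1636 on the DMSO arrays. Every ATRA value was below every DMSO value, by far more than the spread in either group. The means were 1068 ± 58.3 with ATRA and 1703 ± 66.5 with DMSO (SD, n = 3 arrays each), 1.60-fold lower with ATRA (log2 difference -0.67, SE 0.091, limma adjusted p = 0.0102). The call was lost without DMSO replicate 1 (adjusted p = 0.0509) and held in the other 5 fits with 1 array left out, and the difference stayed between -0.71 and -0.63. Of the other small heat shock genes, HSPB3, a muscle protein, and HSPB8, the partner of BAG3, were at dim levels with overlapping groups (-0.25 and -0.03). HSPB1 thus moved opposite to HSPA6 on the same arrays. Both genes are known targets of HSF1.

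**Figure D4:**
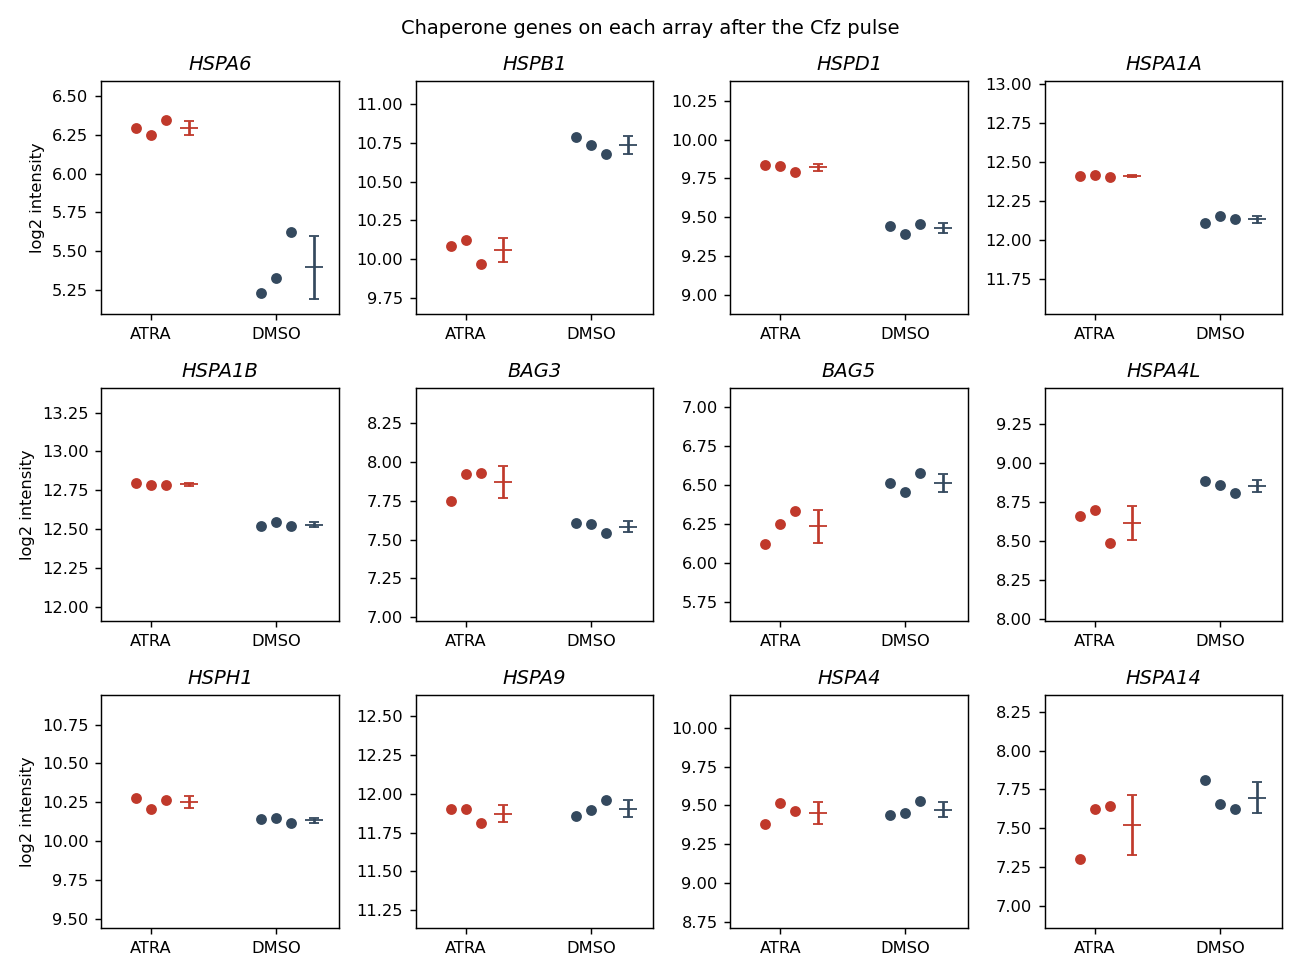
Log2 intensity of 12 members on each array, ATRA in red to the left and DMSO in blue to the right, with the mean and SD of the 3 arrays beside the points. All panels span 1.5 log2 units. HSPA6 (0.90) and HSPB1 (-0.67) show the widest gaps, and HSPA9, HSPA4 and HSPA14 overlap.

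Of the 3 HSP110 genes, whose proteins exchange the nucleotide of HSP70, 0 passed in limma's test, and 1 was lower at an unadjusted p of 0.05, beside 10.4% of all genes. HSPA4L was at 405, 416 and 359.8 with ATRA and 474, 465 and 449.6 with DMSO, so its ATRA values were the lower (log2 difference -0.24, 95% interval -0.46 to -0.01, adjusted p = 0.251). HSPH1, the heat-inducible HSP110, was at 1242, 1182 and 1231 with ATRA and 1129, 1133 and 1111 with DMSO, a difference of 0.12 (-0.08 to 0.31) with no overlap. HSPA4 was at 666, 731 and 705 with ATRA and 693, 701 and 739.9 with DMSO. Its difference of -0.02 (-0.23 to 0.19) became 0.02 with quantile normalization.

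Of the 5 BAG genes measured, 0 passed in limma's test, and 1 was higher and 1 lower at an unadjusted p of 0.05, beside 7.52% and 10.4% of all genes. BAG3, which is induced by stress and sends misfolded proteins to autophagy together with HSPB8, was at 215, 243 and 244 with ATRA and 195, 194 and 187 with DMSO. It did not overlap between groups, with a difference of 0.28 (0.07 to 0.50, limma adjusted p = 0.166). BAG5, which binds HSP70 through several BAG domains, was at 69.6, 76.2 and 80.7 with ATRA and 91.2, 87.9 and 95.4 with DMSO, lower without overlap at -0.28 (-0.51 to -0.05, adjusted p = 0.189). BAG1, which links HSP70 to the proteasome, was at 101, 117 and 91.9 with ATRA and 139, 129.6 and 109.6 with DMSO. The BAG1 groups overlapped through ATRA replicate 2 and DMSO replicate 3 (-0.29, -0.60 to 0.03). BAG2, an inhibitor of the ubiquitin ligase STUB1, and BAG4, also known as a silencer of death domains, differed by 0.03 and -0.06.

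The 4 members matched by name only showed no call and overlapped in every case, with differences of -0.22 to 0.08. HSPBAP1 was the one of them above the marker levels, at 96.4 ± 13.4 with ATRA and 92.6 ± 8.29 with DMSO (SD, n = 3 arrays each). The relation of the antisense RNAs DNAJC9-AS1 and DNAJC27-AS1 to the J-domain genes they are named for was not tested. Those genes were not analysed here, and the antisense values do not stand for them.

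Partners of these chaperones outside the symbol rule were read from a list of 59 genes, of which 41 were measured. Of these, 1 rose, 2 fell and 38 did not pass, beside the 1.73% and 2.07% of all genes called. In mean 8 were higher and 33 lower, with a median difference of -0.08. The groups did not overlap for 15, of which 2 were higher and 13 lower, against 9.86% and 14.8% of all genes. Among the 6058 genes above the marker levels, 848 were higher and 1664 lower without overlap. Groups without overlap were thus more frequent among these brighter genes than among all genes. The part of brightness in the partner counts was not tested. The median of the 6058 genes above the marker levels was -0.06.

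HSBP1, whose small protein binds the trimers of HSF1 and is described as a brake on it, was the partner that rose. HSBP1 was at 266, 266 and 259 with ATRA, against 133, 133 and 126 with DMSO. The 2 groups are far apart, averaging 264 ± 3.96 in the ATRA group and 130.4 ± 4.22 in the DMSO group (SD, n = 3 arrays each). The rise was 2.02-fold (log2 difference 1.02, SE 0.084, limma adjusted p = 0.00159) and larger than that of any member. It passed in all 6 fits with 1 array left out (0.99 to 1.03). HSF1 itself, the master factor of heat shock genes, was at 227, 265 and 241 with ATRA and 279, 273 and 272 with DMSO. The HSF1 values were lower without overlap but did not pass (-0.17, 95% interval -0.39 to 0.05, adjusted p = 0.409). HSF4 and HSF5, heat shock factors of lens and testis, differed by -0.07 and -0.04. Array values speak of RNA, and the activity of HSF1 was not measured.

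The 2 partners that fell were PDCL and FKBP5. PDCL, a phosducin-like protein that works with the CCT chaperonin on G protein subunits, was at 67.7, 65.7 and 82.7 with ATRA, against 104, 128 and 125 with DMSO. Its values did not overlap, and it was 1.65-fold lower (-0.73, SE 0.13, limma adjusted p = 0.0295). PDCL kept its call in 1 of 6 fits with 1 array left out, the fit without ATRA replicate 3, and had an adjusted p of 0.0509 to 0.110 in the other 5. FKBP5, an HSP90 co-chaperone of steroid receptors, was at 12.8, 12.3 and 12.6 with ATRA and 17.7, 17.4 and 15.8 with DMSO (-0.43, adjusted p = 0.0472). Those FKBP5 values lie among dim markers of other cell types, and its call was lost whichever array was left out (adjusted p 0.0854 to 0.151). The FKBP5 call was also lost with trend and robust (0.111), and its difference was -0.21 with the offset.

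Of the 11 HSP90 and HSP70 co-chaperones measured, 1 fell (FKBP5), 0 rose and 10 did not pass, beside 2.07% and 1.73% of all genes called lower and higher. In mean 10 were lower, with a median difference of -0.15, beside 7879 of all 14884 genes and 3688 of the 6058 above the marker levels. TOMM34, which escorts proteins to mitochondria, was at 220.0, 223 and 211 with ATRA, against 258, 269 and 272 with DMSO (-0.29, adjusted p = 0.126), and it passed with trend and robust, with the offset and with the brighter 50% of genes. CDC37, which brings kinases to HSP90, differed by -0.22 (-0.45 to 0.02), STIP1, which joins HSP70 to HSP90, by -0.06, and PTGES3, the HSP90 co-chaperone p23, by -0.09. Of the 7 measured mitochondrial partners 0 passed in limma's test, and 1 was higher and 1 lower at an unadjusted p of 0.05, beside 7.52% and 10.4% of all genes. These were HSCB (0.34), the J-protein of iron-sulfur cluster assembly, and CLPB (-0.26), a disaggregase. TRAP1, the mitochondrial HSP90, differed by -0.12 (-0.32 to 0.07). Of 9 measured genes of prefoldin and chaperonin assistance, 1 fell (PDCL) and 0 rose, beside 2.07% and 1.73% of all genes called. The other 8 lay between -0.21 and 0.11.

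**Figure D5:**
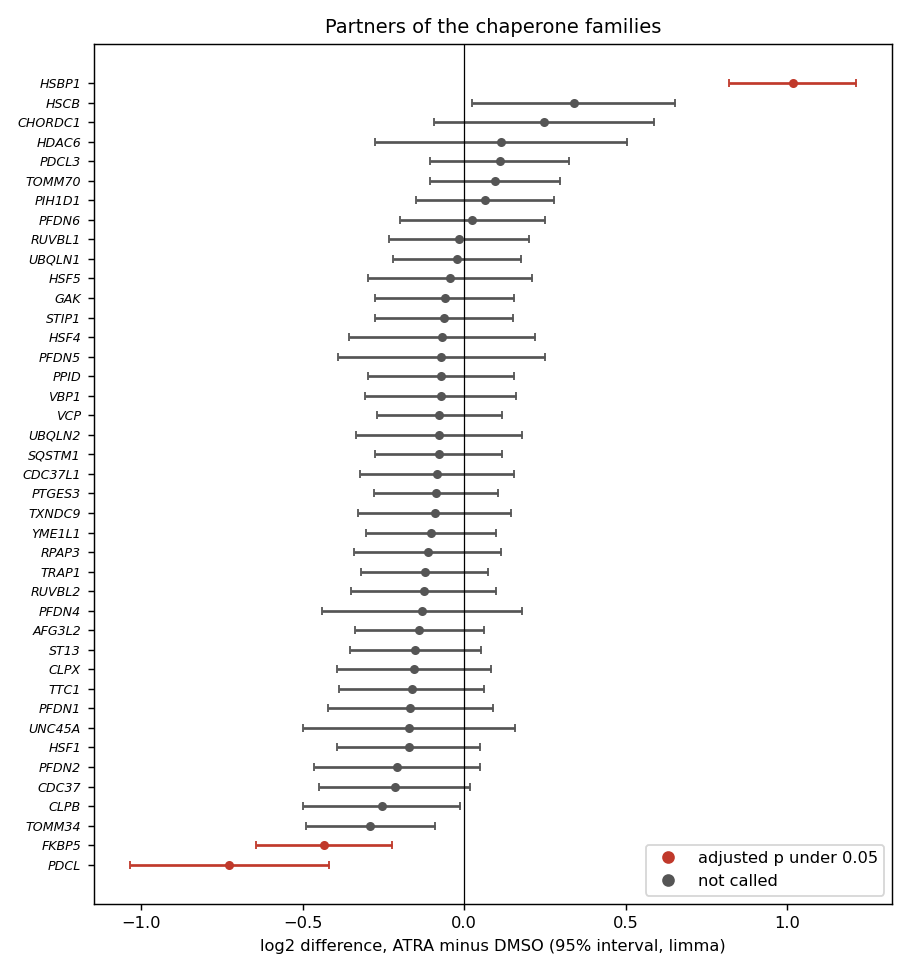
Log2 difference, ATRA minus DMSO, of the 41 measured partner genes, ordered from highest at the top to lowest, with limma's 95% interval (3 arrays per group). Red points passed an adjusted p of 0.05, with HSBP1 (1.02) at the top and PDCL (-0.73) and FKBP5 (-0.43) at the bottom.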

How the data were processed

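RNA of 6 MM.1S samples was hybridised to 1-colour arrays. The deposited values are linear intensities of 53617 probe sets on each array, with 0 values at or below 0, and the authors' RMA and limma are named, without versions or roles, per the submitters' processing notes. The genome build is not given in the sources used here. Values were turned to log2 without a pseudocount. Of the probe sets, 16098 have exactly 1 symbol in the platform annotation, 0 of whose symbols changed through Entrez IDs in RefSeq (GRCh38.p14), which served for names and promoters only. For each of 14884 symbols the probe set with the highest mean over the 6 arrays was used, and 779 symbols have several.

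Groups and replicate numbers come from the labels. limma 3.58.1 in R 4.3.3 (lmFit, eBayes, no block, two-sided) was fitted on all symbols with Benjamini-Hochberg adjustment and a threshold of 0.05. SDs are over 3 arrays, intervals are 95% intervals of the fit, and folds are ratios of geometric means. Array medians were 9.40 to 9.76, and log2 values correlated at 0.990 to 0.992 across genes within groups and 0.985 to 0.987 between them. Same-numbered arrays deviated together at a correlation of 0.0087 to 0.017, and differently numbered ones at -0.014 to -0.0027. All these values are small, and the numbers were not taken as pairs.

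Members, partner list, marker lists and the rule for named genes were chosen with earlier results of these data known. The rule gave per-array values for called members, the 4 brightest, the largest difference of a family with none called, called partners and HSF1. Per-array values of further genes were added after theirs were seen, as were those of the uncalled partners. On simulated data for ATRA against DMSO (14884 genes, 50 changed at each size), 0% of changes of 0.25 on the log2 scale were recovered, 8% of 0.5, 64% of 1 and 98% of 2. There were 5 false calls. Fewer genes were changed there than were called in the data (257 higher and 308 lower), so recovery in the data may differ. Alternatives were a replicate block, each array left out, a common median, quantile normalization, the brighter 50% of genes, an offset of 16, eBayes with trend and robust, averaging probe sets of a symbol, testing all probe sets singly and protein-coding genes alone. Trend alone and robust alone were added after seeing the data.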

Additional observations from a re-analysis of the deposited data

How the results depend on the processing

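The number of members that rose was 1 in the main fit, which called 257 of all genes higher. The number became 2 with quantile normalization (270 genes called higher) and among protein-coding genes alone (276 of those genes). With the brighter 50% of genes it was 4 (436 of those genes). With the offset (452 genes), with eBayes with trend and robust (494) and with trend alone (497) it was 5. In all 6 fits with 1 array left out it was 1 (112 to 152 genes). The number that fell (1, with 308 genes called lower) became 2 with trend and robust and with trend alone (833 each). It became 0 with the replicate block (87) and was 0 to 1 with 1 array left out (95 to 165). Partners that fell (2) were 0 with the replicate block, 3 with the offset, 1 with robust alone and 0 to 1 with 1 array left out, and the 1 partner that rose was HSBP1 under every alternative. The median difference of the members (-0.02) was -0.050 with a common median, 0.0096 with quantile normalization and -0.054 to 0.018 with 1 array left out, so it has no settled sign. With the replicate block, whose numbers were not taken as pairs in the main fit, HSPA6 kept its call (limma adjusted p = 0.0399). HSPB1 (0.0513), PDCL (0.0669) and FKBP5 (0.130) did not keep theirs. All genes called went to 113 higher and 87 lower, against 257 and 308.

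Signs turned for uncalled genes alone. Quantile normalization gave HSPA4 a difference of 0.016 and HSPA9 of 0.0040. With 1 array left out the differences ran from -0.063 to 0.16 for BAG2, -0.19 to 0.10 for BAG4, -0.19 to 0.19 for DNAJC9-AS1, -0.29 to 0.18 for HSPA12B, -0.054 to 0.014 for HSPA4, -0.43 to 0.032 for HSPB3, -0.30 to 0.22 for HSPB8 and -0.023 to 0.17 for HSPBAP1. HSPA6, HSPA1A, HSPA1B, HSPD1, HSPH1, BAG3, HSPA4L, BAG5, HSPB1, HSBP1 and HSF1 kept their direction under every alternative run. Of the alternative values of single genes 443 kept sign and side of the threshold, 19 passed where they had not, 18 no longer passed and 19 changed sign. Signal over background limits the 10 members at marker level, and the background correction and the slide could not be varied on values the authors had already processed.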
